A study of Mus musculus with 4 samples.

Results

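Open chromatin was examined at 6 neighbouring genes of mouse chromosome 9, Sik3, Apoa1, Apoc3, Apoa4, Apoa5 and Zpr1, in liver of PA and wild-type (WT) mice. Every ATAC-seq peak inside these genes or within 50 kb of either end of one of them was taken, on the GRCm38 (mm10) RefSeq positions. The window ran from 45962820 to 46332643 (369.8 kb) and held 36 of 107669 peaks. These peaks formed 20 of 38853 regions once overlapping or touching peaks of the 4 libraries were joined. The locus was selected on the peak calls themselves, for a region at Zpr1 and Apoa5 with a peak in each PA library and none in WT. That call is therefore a description here and was not tested.

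The PA libraries came from mice that the labels give as Pcca-/- with the hypomorphic A138T form, and the WT libraries from mice with wild-type Pcca. Pcca encodes a subunit of the mitochondrial enzyme propionyl-CoA carboxylase, and its deficiency is the cause of propionic acidemia. Both genotypes were females aged 11 weeks on the FVB background, fed standard chow under a 12 h light and 12 h dark cycle. ATAC-seq marks accessible DNA by letting a transposase insert sequencing adaptors into it. It was run by the Omni-ATAC procedure from 20 mg of frozen liver, with 2 libraries a genotype. Whole liver holds many cell types, and a peak in such a sample does not say which of them carries it. A peak within 1 kb of a gene end was listed in all 4 libraries for 6 of 10 hepatocyte marker genes, and each of the 10 had one in at least 1 library. The same was so in all 4 libraries for 0 of 5 Kupffer cell, 1 of 4 endothelial, 1 of 3 stellate, 0 of 3 bile duct and 1 of 3 enterocyte markers. In at least 1 library it was so for 2 Kupffer cell, 2 endothelial, 2 stellate, 1 bile duct and 1 enterocyte marker. Among all protein-coding genes 41.3% had such a peak in all 4 libraries, and 11176 of 21631 had one in at least 1 library. One Kupffer cell marker, Adgre1, which encodes the macrophage antigen F4/80, had one in PA 1 and PA 2 and in no WT library, the pattern for which the locus was selected. The other Kupffer cell markers had none of that pattern: Cd5l was called in PA 2 and WT 1, and Clec4f, Vsig4 and Marco in no library. The part of Kupffer cells in the call at Zpr1 was not tested.

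The cluster encodes proteins that govern blood lipids. Apolipoprotein A-I, from Apoa1, is the main protein of high-density lipoprotein. Apolipoprotein C-III slows the breakdown and uptake of triglyceride-rich lipoproteins, apolipoprotein A-V promotes their breakdown by lipoprotein lipase, and apolipoprotein A-IV is secreted on lipoproteins by intestine and, in mice, by liver. Apoc3 is transcribed against the direction of its neighbours. Zpr1 encodes a zinc finger protein that binds translation elongation factor 1A, and Sik3 encodes salt-inducible kinase 3, a member of the AMPK-related kinases. In human populations the APOA5 and ZPR1 neighbourhood is known for variants associated with plasma triglycerides. The genes stand in the order Pafah1b2, Sik3, Apoa1, Apoc3, Apoa4, Apoa5, Zpr1 and Bud13. The gap between neighbours was 332 bp from Zpr1 to Bud13, 1142 bp from Apoa5 to Zpr1, and 25149 bp from Apoa4 to Apoa5.

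The window held 9 peaks in PA 1 and 11 in PA 2, against 10 in WT 1 and 6 in WT 2. The mean was 10 ± 1.41 in PA and 8 ± 2.83 in WT (SD, n = 2 each), and the genotypes overlapped, with WT 1 between the PA libraries. Per megabase the window held 24.3 and 29.7 peaks in PA 1 and PA 2, against 27 and 16.2 in WT 1 and WT 2. Chromosome 9, up to its last annotated gene end, held 10.7 and 12.8 peaks per megabase in PA 1 and PA 2, against 10.8 and 10.7 in WT 1 and WT 2. All 4 libraries thus listed peaks more densely here than along the chromosome, and WT 2 had the lowest count in the window. The window was built around genes and chosen for a peak call, and no other gene-centred window was compared.

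Few regions of the window were shared by every library. Of the 20 regions, 2 (10%) were called in all 4 libraries, where 45.3% of all regions were. Of the rest, 2 were called in 3 libraries (10%, against 13.4% of all regions), 6 in 2 (30%, against 14.5%) and 10 in 1 (50%, against 26.8%). A region called in both PA libraries and no WT library occurred once, and none was called in both WT libraries and no PA library. Over all regions those patterns made up 3.38% and 1.98%, and since the locus was chosen for the first, nothing is read from its count. Each of the other 5 regions called in 2 libraries was shared by a PA and a WT library. PA 1 and WT 1 shared 3 of these, PA 2 and WT 2 shared 1, and PA 2 and WT 1 shared 1. The shares in the window rest on 20 regions, among them the one the locus was chosen for. No other gene-centred window was compared for them.

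**Figure D1:**
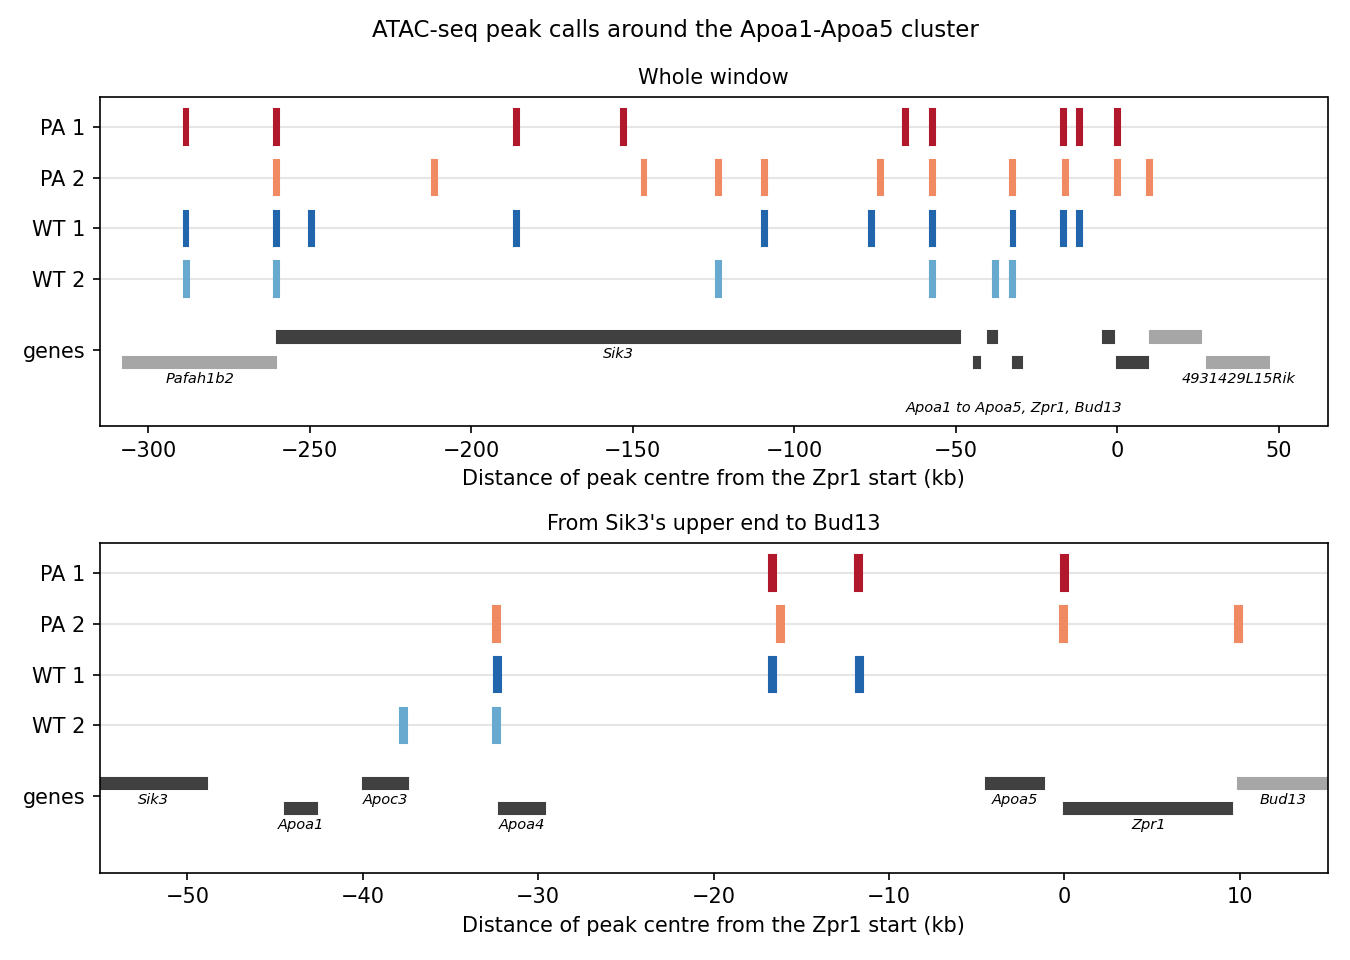
Peak calls of the 2 PA and 2 WT libraries (rows) by the distance of the peak centre from the Zpr1 start in kb, over the whole window and, enlarged, from the upper end of Sik3 to Bud13. Marks are drawn wider than the 400 bp peaks, dark bars are the 6 genes and grey bars their neighbours. At 0 kb only the PA rows carry a mark, and no library has one at Apoa1.

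**Figure D2:**
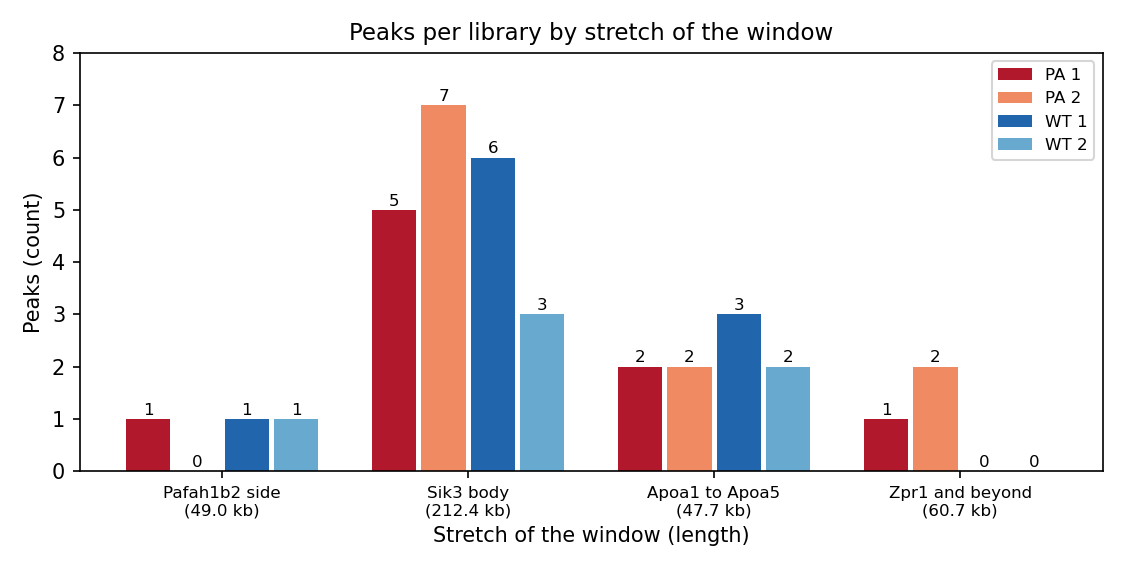
Number of peaks (count) in each library in 4 stretches of the window, with the length of each stretch in kb. From Apoa1 to Apoa5 the bars stand at 2 and 2 in PA and at 3 and 2 in WT. Beyond Apoa5 they stand at 1 and 2 in PA and at 0 in both WT libraries. That last stretch holds the region for which the locus was chosen.

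The region for which the locus was chosen lay on the start of Zpr1. It ran from 46272818 to 46273284 (467 bp). PA 1 had a peak from 46272885 to 46273284 and PA 2 a peak from 46272818 to 46273217, and these shared 333 bases. The WT lists had none there: the nearest peak to the Zpr1 start at 46273064 was 11478 bp away in WT 1 and 32174 bp away in WT 2. The peak centres stood 20 bp past the start in PA 1 and 47 bp before it in PA 2. Across all promoters with a peak, the middle 50% of centres lay between 112 and 5 bp before the start in PA 1, and between 110 and 8 bp before it in PA 2. The centre at Zpr1 was thus inside the usual range in PA 2 and just past it in PA 1.

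The Zpr1 promoter is shown because both peaks of the PA-only call cover it, PA 1 for 229 and PA 2 for 296 of its 300 bases. It is the RefSeq sequence of GRCm38.p6, plus strand, chr9:46272814-46273113, of the C57BL/6J reference and not of FVB. It holds 250 bases before the start and 50 from the start on. Capitals run from the first to the last 16-base word that occurs in the promoters of 10 or more other genes. Words between these need not recur: those starting 169 to 149 bases before the start occurred in no other gene's promoter.
Zpr1: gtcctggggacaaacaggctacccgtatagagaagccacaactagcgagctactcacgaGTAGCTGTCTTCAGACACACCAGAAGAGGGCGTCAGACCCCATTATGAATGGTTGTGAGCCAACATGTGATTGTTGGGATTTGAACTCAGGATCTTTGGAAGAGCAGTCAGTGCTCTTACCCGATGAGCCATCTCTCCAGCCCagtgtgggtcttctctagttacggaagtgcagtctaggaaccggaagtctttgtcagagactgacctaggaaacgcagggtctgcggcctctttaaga
The capitals run from 191 to 49 bases before the start. Of the 285 words of the promoter, 35 occurred in the promoters of 10 or more other genes, and the most widespread in those of 52. The span reads as the reverse complement of a B2 element, a short interspersed repeat of rodents. That name is given from general knowledge and was not searched for in a repeat database. A further 141 promoter windows, of 131 genes, shared at least 3 of these words. The windows had a median of 2 CpG dinucleotides, where all promoter windows had 7, and the comparison was not matched for this. Of the 141, 135 had a peak in no library, 4 (2.84%) had one in all 4 libraries and 0 had one in both PA libraries alone. Among all 32851 promoter windows 25.8% had a peak in all 4 libraries and 0.511% in both PA libraries alone. With a background that low, a set of this size cannot show a lack of the PA-only pattern. The search for shared words was chosen after the sequence was read. No source used here says how reads that align to several places were treated.

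Apart from the repeat-like span, the Zpr1 promoter held CCGGAAGT, the core recognised by ETS factors, starting 8 bases before the start. It also held TAGGTCA on the minus strand, a REV-ERB and ROR type site, beginning at base 14 counted from the start as 1. Of all promoter windows, 3.89% held CCGGAAGT and 2.61% held TAGGTCA on either strand. The ETS letters were added to the search after the sequence was read. A match describes letters only. The promoter had 9 CpG dinucleotides. Promoters with a peak in both PA libraries alone had a median of 16, those with a peak in all 4 libraries 23, and those with none 4.

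**Figure D3:**
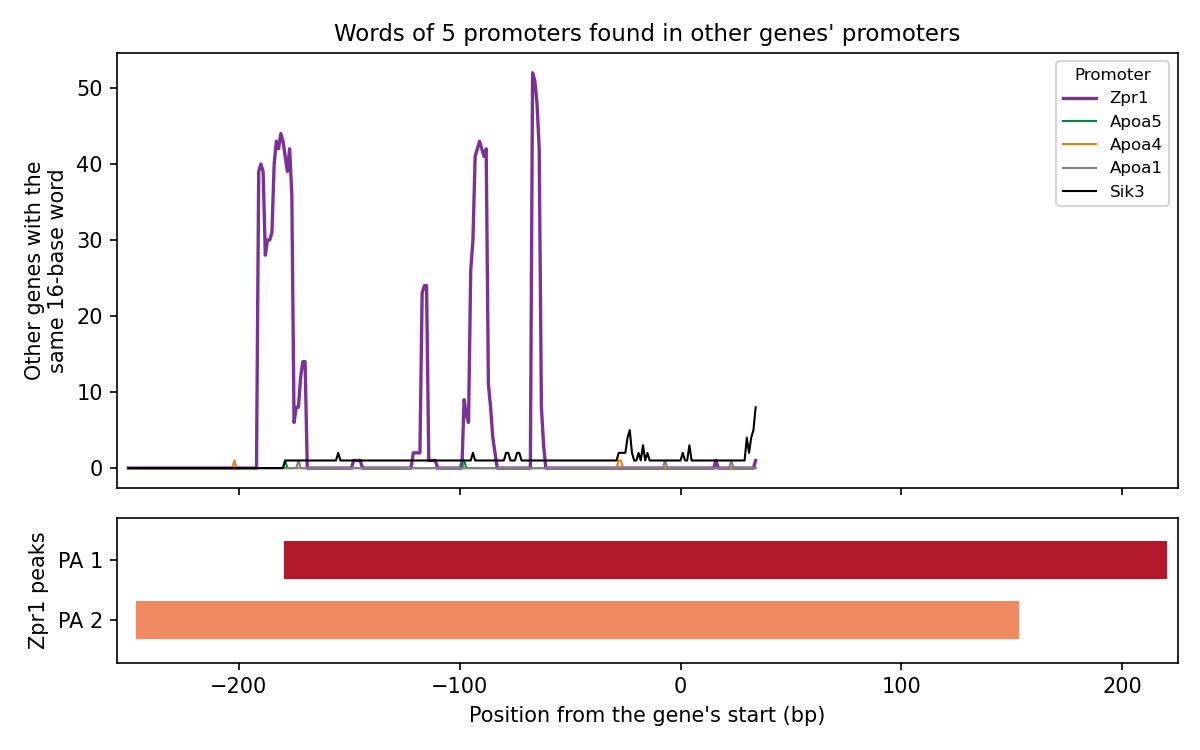
Upper panel: number of other genes whose promoter holds the same 16-base word, by the position of the word's first base from the gene's start (bp), for 5 promoters. Lower panel: extent of the Zpr1 peaks of PA 1 and PA 2 on the same axis. Zpr1 reaches 52 genes between 191 and 49 bases before its start, Sik3 stays at or below 8, and the peaks of both libraries overlap the Zpr1 span.

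Apoa5 was linked to the same call through its far end and not its start. The upper end of Apoa5, at 46271921, is the downstream end of the gene, and the Zpr1 peaks began 964 bp past it in PA 1 and 897 bp past it in PA 2. Both distances fall just under the 1 kb that counts as near. No library had a peak over either Apoa5 start (46268608 and 46268633). The nearest peak to a start was 4252 bp away in PA 1 and 4185 bp in PA 2, against 7022 bp in WT 1 and 27718 bp in WT 2. By gene ends, 2 of the 6 genes, Apoa5 and Zpr1, were called in PA 1 and PA 2 and in no WT library, a pattern of 0.661% of protein-coding genes. By promoter windows it was Zpr1 alone. The pattern chose the locus and was not tested.

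The Apoa5 promoter (chr9:46268358-46268657, plus strand, RefSeq, GRCm38.p6) is shown as the one without a peak beside Zpr1. Capitals mark an E-box, CACGTG, 82 bases before the first listed start, and a TATA box, TATAAA, 31 bases before it. They lie 107 and 56 bases before the second listed start.
Apoa5: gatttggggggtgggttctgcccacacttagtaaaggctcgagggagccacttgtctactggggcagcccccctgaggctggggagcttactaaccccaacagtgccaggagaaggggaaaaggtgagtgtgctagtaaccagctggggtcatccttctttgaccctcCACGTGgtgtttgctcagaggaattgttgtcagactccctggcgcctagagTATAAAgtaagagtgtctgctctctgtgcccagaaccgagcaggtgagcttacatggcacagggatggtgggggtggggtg
CACGTG was present in 7.15% of all promoter windows and TATAAA in 13.6%. This window had 4 CpG dinucleotides, and 66.3% of all promoter windows had a peak in no library.

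Between Apoa4 and Apoa5 the calls were shared across genotypes. A region at 46256219 to 46256622, 11986 bp before Apoa5, was called in PA 1 and WT 1, with peak centres 4 bp apart. PA 2 had its peak 78 bases beyond that region, at 46256701 to 46257100. Joined across this gap, it would be 1 region of 3 libraries, lacking in WT 2. A further region at 46261122 to 46261586, 7022 bp before Apoa5, was called in PA 1 and WT 1 and in neither of the other libraries. At neither place did the calls separate PA from WT, and WT 2 had no peak there.

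Of the 4 apolipoprotein genes of the cluster, Apoa4 had a peak near an end in the most libraries, 3. The region over its start, at 46240491 to 46240928, was called in PA 2, WT 1 and WT 2 and not in PA 1, with centres 139 bp before the start in PA 2, against 116 bp in WT 1 and 154 bp in WT 2. The nearest PA 1 peak was 15379 bp from the start. In its list the peak stood at 40% of the lines in PA 2, against 39.5% in WT 1 and 36.1% in WT 2. The PA libraries differed from each other here, so the calls do not separate the genotypes. The Apoa4 promoter (chr9:46240594-46240893, plus strand, RefSeq, GRCm38.p6) is shown as the only apolipoprotein promoter of the cluster in the table used that had a peak. The search took only exact matches to strings for the TATA box, GC box, E-box, ETS, HNF1, FOXA, C/EBP, and REV-ERB and ROR. It also took direct repeats bound by HNF4A and other nuclear receptors, CAAAGTCCA and CAAAGGTCA. None of these motifs occurred in the Apoa4 promoter, so it holds no capitals. It does hold CAAAGTTCA, which differs by 1 base from each of the direct repeats and was not counted.
Apoa4: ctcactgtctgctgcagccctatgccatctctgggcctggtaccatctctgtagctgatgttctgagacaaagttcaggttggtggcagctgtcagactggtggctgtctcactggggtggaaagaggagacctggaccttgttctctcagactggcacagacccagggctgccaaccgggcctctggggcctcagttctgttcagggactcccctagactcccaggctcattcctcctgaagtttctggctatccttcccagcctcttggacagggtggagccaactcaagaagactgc
It had 1 CpG dinucleotide, where the lower quartile of promoters with a peak in all 4 libraries was 16.

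Apoc3 had a peak in 1 library. WT 2 had it at 46235204 to 46235603, inside the gene and 33 bp from its upper end at 46235636. Because Apoc3 is transcribed against its neighbours, this upper end is the one at which the gene starts. The nearest peak to that end was 19603 bp away in PA 1 and 4870 bp away in PA 2, against 4893 bp in WT 1. The WT 2 peak stood 13.1% of the way down its list, higher than any other peak of that library in the window. WT 1 lacked it, so the WT libraries differed from each other at Apoc3, and 26.8% of all regions were called in 1 library.

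Apoa1 had no peak within 1 kb of either end in any library, like 48.3% of protein-coding genes. The nearest peak to its start, 46228630, was 12597 bp away in PA 1 and 11876 bp in PA 2, against 11899 bp in WT 1 and 6574 bp in WT 2. The absence of a listed peak at a gene that liver expresses strongly says only that no window passed the caller's threshold, and no source used here gives that threshold. The Apoa1 promoter (chr9:46228380-46228679, plus strand, RefSeq, GRCm38.p6) is shown for comparison with that of Apoa4. It holds no exact match to the motifs searched and 4 CpG dinucleotides.
Apoa1: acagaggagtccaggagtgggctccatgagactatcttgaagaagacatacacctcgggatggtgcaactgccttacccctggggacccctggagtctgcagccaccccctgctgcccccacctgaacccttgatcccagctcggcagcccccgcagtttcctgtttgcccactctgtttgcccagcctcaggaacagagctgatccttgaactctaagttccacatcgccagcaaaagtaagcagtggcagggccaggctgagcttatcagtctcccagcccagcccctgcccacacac

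Sik3 carried most of the regions, and the only ones called in every library. Its span from 1 kb before its lower end to its upper end made up 212.4 of the window's 369.8 kb and held 12 of the 20 regions. The 47.7 kb from Apoa1 to Apoa5 held 5, so the count at Sik3 is not a higher density. The Sik3 span had 5 peaks in PA 1 and 7 in PA 2, against 6 in WT 1 and 3 in WT 2. The first region shared by all 4 libraries lay on its start, at 46012462 to 46012914. Pafah1b2, which encodes a catalytic subunit of a platelet-activating factor acetylhydrolase, starts on the opposite strand with 129 bp between the genes. Peak centres stood 155 and 133 bp before the Sik3 start in PA 1 and PA 2, against 159 and 106 bp in WT 1 and WT 2, so that they differed by at most 53 bp. The Sik3 promoter (chr9:46012570-46012869, plus strand, RefSeq, GRCm38.p6) is shown as the promoter called in all libraries. Capitals mark an E-box 120 bases before the start.
Sik3: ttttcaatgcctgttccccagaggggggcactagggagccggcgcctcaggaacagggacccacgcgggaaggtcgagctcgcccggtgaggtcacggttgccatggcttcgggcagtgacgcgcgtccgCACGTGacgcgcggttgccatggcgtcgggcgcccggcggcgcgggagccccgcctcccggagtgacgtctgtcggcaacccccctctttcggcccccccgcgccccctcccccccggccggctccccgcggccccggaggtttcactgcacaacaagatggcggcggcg
With 39 CpG dinucleotides it was above the upper quartile, 31, of promoters with a peak in all 4 libraries. The promoters of the cluster thus ran from 39 CpG dinucleotides at Sik3, called in all 4 libraries, to 9 at Zpr1, called in both PA libraries, 4 at Apoa1 and Apoa5, called in none, and 1 at Apoa4, called in 3.

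The second region of all 4 libraries lay inside Sik3 at 46215631 to 46216100, 8094 bp from its upper end, on the side of Apoa1. The peaks had 330 bases in common. The other 10 regions inside Sik3 were called in 1 or 2 libraries each. Of these, 7 were in a single library, 2 of them in PA 1, 3 in PA 2 and 2 in WT 1. A pair of these, 1 of WT 1 at 46196805 and 1 of PA 2 at 46199605, lay 2400 bases apart. No region inside Sik3 was called in both libraries of 1 genotype alone.

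Beyond Zpr1 the only peak was one of PA 2 at 46282767 to 46283166, over the start of Bud13, which encodes a splicing factor. It lay 124 bp from the upper end of Zpr1, so Zpr1 had a call at its lower end in both PA libraries and at its upper end in PA 2. The last peak before the right edge ended at 46273284 in PA 1 and 46283166 in PA 2, against 46261586 in WT 1 and 46240890 in WT 2. From there 207 and 148 kb passed without a peak in PA 1 and PA 2, against 169 and 139 kb in WT 1 and WT 2. On the Pafah1b2 side, a region at 45984568 to 45985056 over an internal start of that gene was called in PA 1, WT 1 and WT 2 and not in PA 2. Just outside the left edge all 4 libraries had a peak, 7362 and 7378 bp away in PA 1 and PA 2 and 7373 and 7378 bp away in WT 1 and WT 2.

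Place in the deposited lists was also described. The lines do not follow the genome as a whole, and no source used here says what orders them. Between 96.4% and 97.3% of steps from line to line did ascend in the genome, so that each list broke into 711 to 1067 runs in genome order. Chromosome 9 comes late in that order (chromosome names sorted as text), and in runs of 100 lines or more its peaks stood a median of 94.1% to 94.7% of the way through their run. A place given here is therefore known only to within its run. Among the window's peaks the Zpr1 peaks stood highest in both PA lists, 13.9% of the way down in PA 1 (run from 13.8% to 13.9%) and 10.2% in PA 2. Of all 1315 regions called in both PA libraries alone, the middle 50% stood 66.3% to 91.6% down the PA 1 list and 68% to 91.3% down the PA 2 list. The Zpr1 region was selected on calls from these same lists, so this is a description.

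The regions called in all 4 libraries gave a comparison of places. The Sik3 start stood 21.2% and 23.9% of the way down the PA 1 and PA 2 lists, against 38.1% and 20.6% down the WT 1 and WT 2 lists. The region 8094 bp from the upper end of Sik3 stood at 28.1% and 18.1% in PA 1 and PA 2, against 38.4% and 21.4% in WT 1 and WT 2. The WT 1 peak stood lowest both times, and WT 2 lay within or close to the PA range. Over all 17581 regions called in every library the median place was 35.9% in PA 1 and 32.4% in PA 2, against 36.7% in WT 1 and 36.9% in WT 2. Of the 20 regions in the window 10 had a peak in the upper 50% of a list. Among these were all 5 from Apoa1 to Apoa5 and 4 of the 12 of Sik3. The matching share over all regions was not computed, so nothing is read from these counts. Whether the order of the lines reflects how open a window was cannot be told from the lists.

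**Figure D4:**
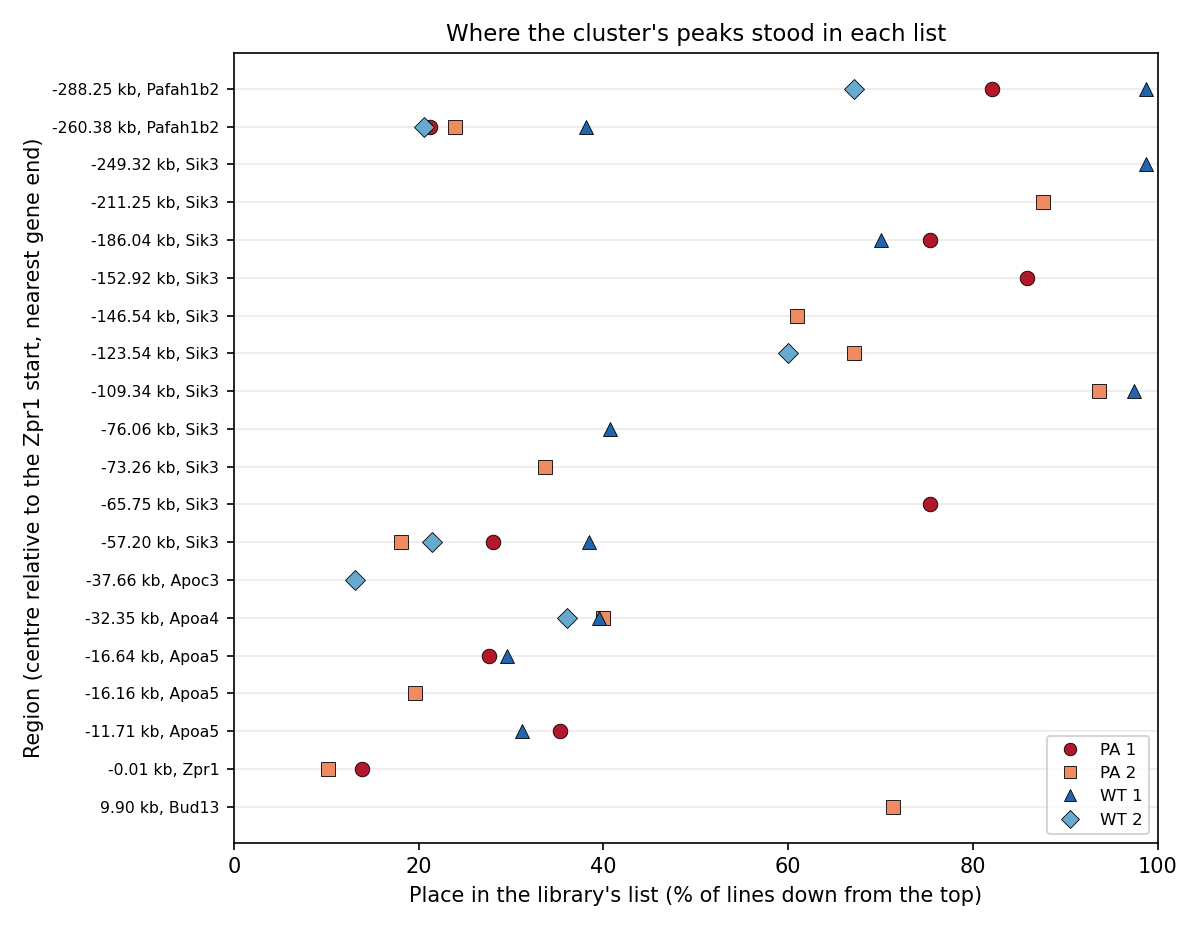
Place of each peak of the window in its own library's list (% of lines down from the top, x axis) for the 20 regions, named on the y axis by the distance of their centre from the Zpr1 start and the nearest gene end; the region at -260.38 kb covers the starts of both Pafah1b2 and Sik3. The Zpr1 region stands at 13.9% in PA 1 and 10.2% in PA 2, and WT 2's Apoc3 peak at 13.1%.

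Genes that act with the cluster were called about as evenly as genes at large. Of 50 genes of lipoprotein structure, assembly, breakdown, uptake and control, 25 (50%) had a peak within 1 kb of an end in all 4 libraries and 18 had one in no library, together 86%. Over all protein-coding genes 41.3% had one in all 4 libraries and 48.3% in none, together 89.6%. None had one in both PA libraries alone, where 0.661% of protein-coding genes did. One, Onecut1, a hepatocyte transcription factor, had one in both WT libraries alone, where 0.476% of protein-coding genes did. The remaining 6 were mixed. Apob, the structural protein of very low-density lipoprotein, and Apoh were called in all 4 libraries. Apoe, a ligand for lipoprotein uptake, was called in PA 2, WT 1 and WT 2, and Apoa2, a high-density lipoprotein protein, in PA 1, PA 2 and WT 1. Apoc1, Apoc2, the activator of lipoprotein lipase, Apoc4 and Apom were called in no library. Assembly and secretion genes were called in all 4 libraries in 5 of 6 cases and uptake and exchange genes in 8 of 11. For the other groups the counts were 3 of 10 for the lipoprotein and apolipoprotein group, which includes Apobr, 2 of 8 for lipolysis and 7 of 15 for regulators. Of the 6 genes of the locus, 1 was called so, Sik3. These counts stand beside the 41.3% of all protein-coding genes and were not tested.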

How the data were processed

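Peaks were analysed in 4 ATAC-seq libraries of female mouse liver, 2 PA and 2 WT, grouped by their titles. The authors deposited 1 list of peak positions per library (25683 and 29765 peaks in PA 1 and PA 2, 26280 and 25941 in WT 1 and WT 2), with no score or other measurement in it. Nearly all peaks are 400 bp long. Per the submitters' processing notes, cutadapt 3.5, Bowtie2 2.5.1, SAMtools 1.17, R 4.1.2, HOMER 4.10, bedtools 2.31.0 and GRCm38 (mm10) were used. These sources do not say which program called the peaks, at what threshold, or how reads were filtered or shifted. Depth is unknown, so a missing peak is not closed chromatin.

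Peaks were joined across libraries where they overlapped or touched (Python 3.11.15), and the joining was tested on simulated data. Coordinates are counted from 1, and a distance is the difference between the nearest bases. Gene positions came from the RefSeq table of GRCm38.p6 (21631 protein-coding genes), and starts, strands and sequences from its promoter table, where 5 of the 6 members and not Apoc3 matched. All 78 list entries matched a gene. No test was run: with 2 libraries a genotype the smallest p an exact permutation can give is 0.333. The members, gene lists and motifs were chosen with earlier results of these data known. The named genes were the members, neighbours with a peak, and lipoprotein list genes restricted to a genotype plus 8 others in list order. Marker genes were named after their values were seen.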

Additional observations from a re-analysis of the deposited data

How the results depend on the processing

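The Zpr1 region stayed the 1 region of both PA libraries and no WT library with a 10 kb window or inside the genes only. The same was so with peaks joined across 100 bp or only where 200 bp were shared. It was also so with lists held to 25683 lines and in the first 50% of each list. None of these settings could have removed the Zpr1 region, so its staying tests nothing. It lay on Zpr1, its peaks shared 333 bases, and no WT peak came closer than 11232 bp. Its peaks stood above both list cuts, 13.9% of the way down in PA 1 and 10.2% in PA 2. The joining and list settings could have given other regions this pattern, and none took it. With the first 50% of each list the window held 10 regions in place of 20. Without one of its libraries a genotype meets its condition more easily: PA-only regions then numbered 1 to 6 and WT-only regions 1 to 2, while regions of every remaining library numbered 2 to 3. PA-only regions were 6 without PA 1 and 3 without PA 2, and WT-only regions 2 without WT 2 and 1 with any other library left out. The nearest WT peak was 11232 bp from the Zpr1 region, and 11232 to 31928 bp with a library left out, the upper value without WT 1. The difference in mean peak count, 2 in favour of PA, ranged from 0 without WT 2 to 4 without WT 1. Genes with a PA-only call at an end fell to 1, Zpr1, within 500 bp of an end, and likewise within 1 kb of a start or by promoter window, which were added after seeing the data. No paired analysis was possible because no result comes from a test that a block could enter. The titles number the libraries 1 and 2 in both genotypes and do not say that a number marks a shared litter or day.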
